A study of Mus musculus with 6 samples.

Results

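The transporters that load glutamate into synaptic vesicles and the transporters that clear it from the extracellular space were examined in E18.5 mouse cortex with and without Ybx1. The 6 genes were taken by symbol from the 17348 genes of the deposited count table: the vesicular glutamate transporters Slc17a6 (VGLUT2), Slc17a7 (VGLUT1) and Slc17a8 (VGLUT3), and the plasma-membrane transporters Slc1a1 (EAAC1), Slc1a2 (GLT-1) and Slc1a3 (GLAST). They were chosen by the values of Slc17a7 in these same libraries, which were already known to be higher in cKO than in control, so that difference between the groups is given as a description and is not independent evidence. Of the 6 genes, 5 passed the filter on low counts and Slc17a8 did not.

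Cortices were dissected from embryos, and 3 control and 3 Ybx1 conditional knockout (cKO) libraries were sequenced at E18.5. The cKO embryos carried Nestin-Cre and 2 floxed Ybx1 alleles (Nestin-Cre, Ybx1 fl/fl). The control libraries are labelled WT. In the study, control animals are Ybx1 fl/fl without Cre, and the RNA-seq controls are described as wild type littermates, so an effect of Cre itself cannot be told apart from the deletion. Nestin-Cre acts in neural progenitors and their descendants, and cells of other origin in the tissue, such as vessels, microglia and blood, keep the gene. The libraries are described as different biological replicates sequenced in 3 batches. Which library belongs to which batch, and whether a library holds 1 embryo or several, is not stated.

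In a glutamatergic neuron, a VGLUT uses the proton gradient of the synaptic vesicle to concentrate glutamate inside it. Slc17a6 is the isoform known for early and subcortical glutamatergic neurons, Slc17a7 is known for its increase in cortical neurons as their synapses mature, and Slc17a8 is found in small populations that include serotonergic and cholinergic neurons. After release, glutamate is taken up with sodium ions by the SLC1 transporters. Slc1a3 is typical of radial glia and astrocytes, Slc1a2 becomes the main astrocytic transporter after birth, and Slc1a1 is mainly neuronal.

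The 250 bases before the transcription start are shown for 3 of the genes because their readouts differed. These are Slc17a7, which was higher in cKO, Slc17a6, which was not, and Slc1a3, whose window held the most matches to the Y box core. Ybx1 belongs to the Y-box-binding proteins, named for that element, although it is studied here as a reader of m5C in RNA. All 6 genes had a promoter window in the RefSeq table (GRCm38.p6), 8 windows in all. The Y box core was searched as CCAAT, the GC box as GGGCGG and a Neurod-type E box as CAGATG, on both strands. Capitals mark the matches, and each sequence runs 5′ to 3′ on the strand of its gene. The windows lie at chr7:45163671-45163920 (plus strand) for Slc17a7, chr7:51621580-51621829 (plus strand) for Slc17a6 and chr15:8710808-8711057 (minus strand) for Slc1a3.
Slc17a7: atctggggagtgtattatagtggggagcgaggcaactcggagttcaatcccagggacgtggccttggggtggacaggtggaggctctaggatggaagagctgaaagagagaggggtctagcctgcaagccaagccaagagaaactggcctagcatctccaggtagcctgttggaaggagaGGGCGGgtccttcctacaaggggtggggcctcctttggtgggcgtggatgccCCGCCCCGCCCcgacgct
Slc17a6: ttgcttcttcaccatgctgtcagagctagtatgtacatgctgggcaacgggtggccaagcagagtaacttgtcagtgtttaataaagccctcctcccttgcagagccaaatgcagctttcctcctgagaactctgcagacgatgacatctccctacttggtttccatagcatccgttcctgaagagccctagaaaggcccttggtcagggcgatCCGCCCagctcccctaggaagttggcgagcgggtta
Slc1a3: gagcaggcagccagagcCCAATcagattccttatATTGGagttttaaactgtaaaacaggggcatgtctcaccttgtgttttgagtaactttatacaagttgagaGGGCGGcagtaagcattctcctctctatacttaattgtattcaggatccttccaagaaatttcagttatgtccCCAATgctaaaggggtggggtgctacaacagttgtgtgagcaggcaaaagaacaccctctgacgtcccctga
The Slc17a7 window held 3 GC boxes, of which 2 overlap by a base, and no Y box core. The Slc17a6 window held 1 GC box. The Slc1a3 window held 3 Y box cores and 1 GC box. The Slc1a1 window and these 3 windows held a GC box, and the Neurod-type E box was found once each in a Slc17a8 window and in an alternative Slc17a6 window. Among 32851 promoter windows of the same length, 33.8% held CCAAT, 32.7% held GGGCGG and 14.4% held CAGATG, so each motif is common. A match to these letters describes the window and is not a binding site.

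The genes lie on 5 chromosomes of GRCm38. In the GENCODE M21 annotation, Slc17a7 (chr7:45163949-45176142) and Slc17a6 (chr7:51622006-51671119) are both on the plus strand of chromosome 7. Slc17a8 (chr10:89574020-89621253) and Slc1a3 (chr15:8634124-8710764) are on the minus strand, and Slc1a1 (chr19:28835049-28913960) and Slc1a2 (chr2:102658659-102790784) on the plus strand. The longest coding transcript has 12 exons in each VGLUT gene and in Slc1a1, 11 in Slc1a2 and 10 in Slc1a3. The Slc1a2 transcript is the longest, at 11595 bases, against 2915 for Slc17a7 and 4137 for Slc17a6.

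Ybx1 was checked first. Control libraries held 16184, 22152 and 13950 estimated counts of it, and cKO libraries held 387, 394 and 390, a log2 difference of -5.47 (SE 0.164). The library totals were between 15091951 and 16885451 estimated counts. Control replicate 2 stood apart: ribosomal protein genes made up 3.352% of its estimated counts, against 2.06% and 2.279% in the other control libraries and 1.686% to 1.758% in the cKO libraries. The Y-linked gene Eif2s3y had 1422 to 1756 counts in the control libraries and 0 or 1 in the cKO libraries, so the sex of the embryos cannot be told apart from genotype in any comparison below. The cortical neuron markers Neurod6 (848.76 to 1245.1 TPM) and Tbr1 (155.97 to 227.47 TPM) were high in all 6 libraries. The summed choroid plexus markers reached at most 1.33 TPM, and the thalamic marker Gbx2 was at 0 in the control libraries and at most 0.17 TPM in cKO. The 7 thalamic markers together reached 48.83 to 64.04 TPM over the 6 libraries, most of it Prkcd (26.14 to 42.68 TPM) and Calb2 (10.26 to 32.16 TPM). The part of thalamic tissue in the level of Slc17a6 was not tested.

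Slc17a7 was higher in the cKO cortex, and none of the other 4 tested transporters had its cKO libraries above all control libraries. The control libraries had 527, 524 and 497 estimated counts, and the cKO libraries had 897, 875 and 808. All 3 cKO libraries lay above all 3 control libraries, and the groups did not overlap. Counts scaled to library size with TMM factors (CPM) averaged 32.6 ± 1.73 in control and 54.1 ± 2.15 in cKO (SD, n = 3), a 1.66-fold difference. In edgeR's quasi-likelihood test over 13570 genes, the log2 fold change was 0.73 (SE 0.103, 95% interval 0.50 to 0.96). The Benjamini-Hochberg adjusted p of edgeR was 0.0722, so Slc17a7 was not called at the threshold of 0.05. At that threshold 10 genes were called, 0.0737% of those tested, and Slc17a7 was the next gene by p, between Rpsa (adjusted p = 0.0269) inside the threshold and Eef1g (adjusted p = 0.077) outside it. By size of the rise it stood at position 97 of 13570. Without control replicate 2, the library with the high ribosomal protein share, the log2 fold change was 0.69 and the adjusted p of edgeR 0.00576. In DESeq2 the log2 fold change was 0.73 with an adjusted p of 3.73e-06. The adjusted p of edgeR was 0.121 with the replicate number as a block, 0.461 without control replicate 1, and 0.595, 0.52 and 0.533 without cKO replicate 1, 2 or 3.

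Slc17a6, the early isoform, showed no such separation. Its estimated counts were 1321, 1177 and 1271 in control and 1320, 1271 and 1130 in cKO. The groups overlapped over most of their range. The log2 fold change was -0.03 (SE 0.121, 95% interval -0.30 to 0.24, adjusted p = 0.969 by edgeR), so a change in either direction beyond the interval was not seen, while smaller ones cannot be told from 0.

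Slc17a8 was at or under the detection floor of 3 counts in every library. It had 3, 2 and 3 estimated counts in control and 1, 0 and 1 in cKO. A count of 0 in cKO replicate 2 allows a level of up to 0.189 CPM, and no fold is given. The floor covers counting error only. The serotonergic markers, a cell type in which Slc17a8 is known, were also low. The summed markers (Tph2, Slc6a4) had 0.86 to 1.31 TPM over the 6 libraries.

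Of the plasma-membrane transporters, the neuronal Slc1a1 was slightly lower in cKO on the CPM scale. It had 69.3, 66.3 and 68.8 CPM in control and 64.9, 60.8 and 60.7 CPM in cKO. No cKO library reached the lowest control library on this scale, whereas the groups overlapped in estimated counts, FPKM and TPM. The log2 fold change of -0.13 (SE 0.0968, 95% interval -0.35 to 0.09) did not pass the test (adjusted p = 0.854 by edgeR). Across all tested genes, 7.35% had every cKO library above every control library and 6.93% had every cKO library below. Of the 5 transporters tested, 1 was in the first class (Slc17a7, which the choice of genes used) and 1 in the second (Slc1a1).

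The glial transporters varied more between replicates than between the groups. Slc1a3 had 2496, 1791 and 1585 estimated counts in control and 2626, 1986 and 2071 in cKO. Its log2 fold change was 0.18 (SE 0.174, 95% interval -0.21 to 0.58, adjusted p = 0.875 by edgeR), and it was 0.06 without cKO replicate 1 and 0.39 without control replicate 1. Slc1a2 had 694, 484 and 436 estimated counts in control and 633, 462 and 519 in cKO, with an equal mean of 538 in both groups. Its log2 fold change was -0.0043 (SE 0.185, 95% interval -0.42 to 0.42, adjusted p = 0.997 by edgeR). The upper bound for Slc1a3, 0.58, lies above the lower bound for Slc17a7, 0.50.

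**Figure D1:**
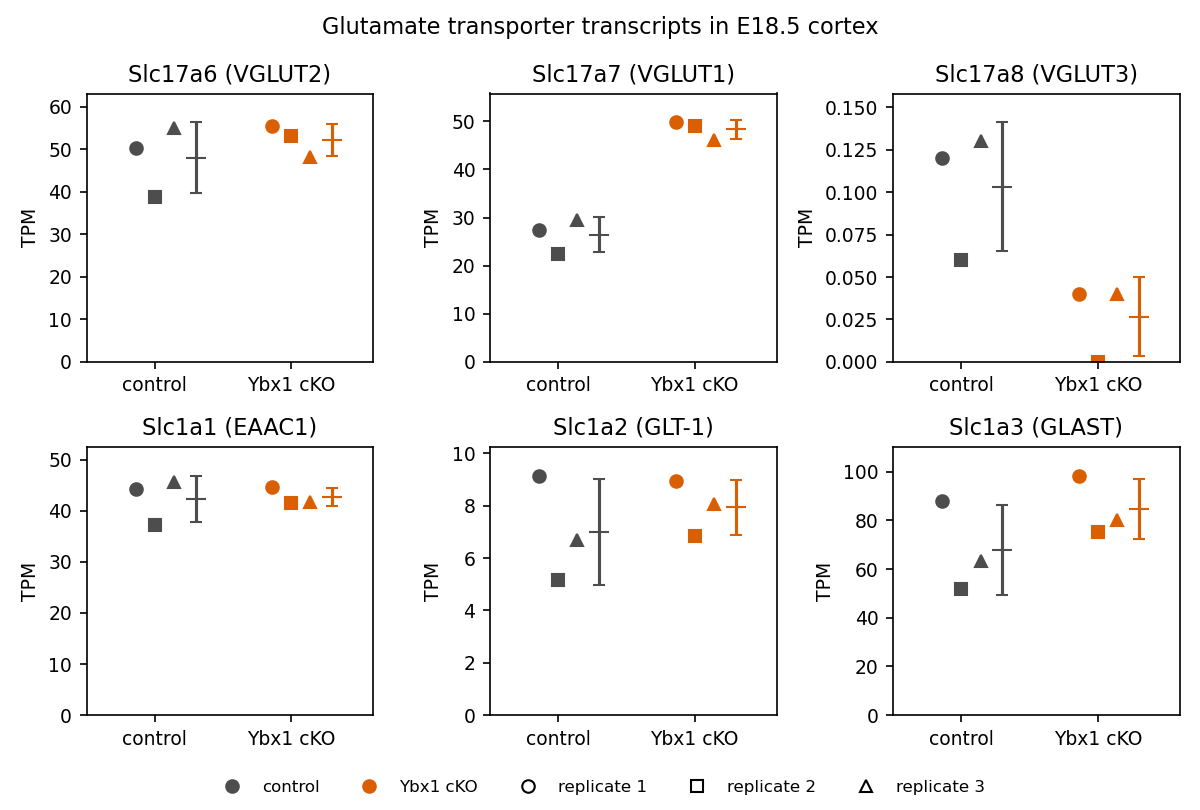
Transcript level of each transporter (TPM, linear axis from 0) in the 3 control (grey) and 3 Ybx1 cKO (orange) libraries, with replicates 1 to 3 as circle, square and triangle and the mean ± SD beside them. Slc17a7 lay between 22.37 and 29.43 TPM in control and between 46.15 and 49.81 TPM in cKO, whereas the groups overlapped for Slc17a6 and the Slc1a genes. Slc17a8 did not exceed 0.13 TPM.

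Levels of different genes can be compared only per transcript length, for which the deposited TPM values were used. TPM values sum to the same total in each library, and over all tested genes the median log2 ratio of cKO to control means was 0.144 on this scale against 0.00301 in CPM. TPM differences are therefore read against that shift. Control replicate 2 stood apart on this scale: its summed FPKM was 522819, against 424951 to 446619 in the other libraries. It had the lowest TPM of all libraries for each tested transporter, which lowers the control means and widens their SDs. Its part in the shift was not tested. Slc17a7 averaged 26.4 ± 3.65 TPM in control and 48.3 ± 1.92 TPM in cKO (SD, n = 3), a log2 ratio of 0.87. Slc17a6 averaged 48.0 ± 8.31 and 52.2 ± 3.72 TPM, a log2 ratio of 0.12. The log2 TPM ratio of Slc1a1 was 0.00895, below the shift, as its CPM values were below control. The log2 TPM ratios of Slc1a2 and Slc1a3 were 0.184 and 0.319.

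Within a library the shift cancels, so the VGLUT isoforms were compared as a ratio. The Slc17a7 to Slc17a6 ratio (TPM) was 0.5481, 0.5757 and 0.5346 in control and 0.8997, 0.9214 and 0.9595 in cKO. It differed by 0.75 on the log2 scale, with SDs of 0.0543 and 0.0469 among replicates. Slc17a7 was below Slc17a6 in all 6 libraries. As a share of VGLUT transcripts, Slc17a7 made up 35.54 ± 0.874% in control and 48.08 ± 0.808% in cKO (SD, n = 3), and Slc17a6 made up 64.32 ± 0.843% and 51.89 ± 0.814%. Slc17a8 contributed at most 0.1543% in any library. The summed VGLUT level was 61.29 to 84.61 TPM in control and 94.29 to 105.21 TPM in cKO.

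Relative to each plasma-membrane transporter, Slc17a7 was higher in cKO. These ratios, like the ratio to Slc17a6, carry the Slc17a7 difference that the choice of genes used. They describe that difference and are not further evidence of it. Its TPM ratio to Slc1a1 was 0.6023 to 0.6453 in control and 1.107 to 1.181 in cKO, a log2 difference of 0.865. The log2 ratio to Slc1a2 differed by 0.664 and that to Slc1a3 by 0.534, and in each case all cKO libraries lay above all control libraries. Ratios without Slc17a7 overlapped between the groups. The TPM ratio of Slc1a3 to Slc1a2 was 9.504 to 10.01 in control and 9.907 to 11.02 in cKO, and that of Slc1a1 to Slc17a6 was 0.8285 to 0.9557 and 0.7803 to 0.8669.

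**Figure D2:**
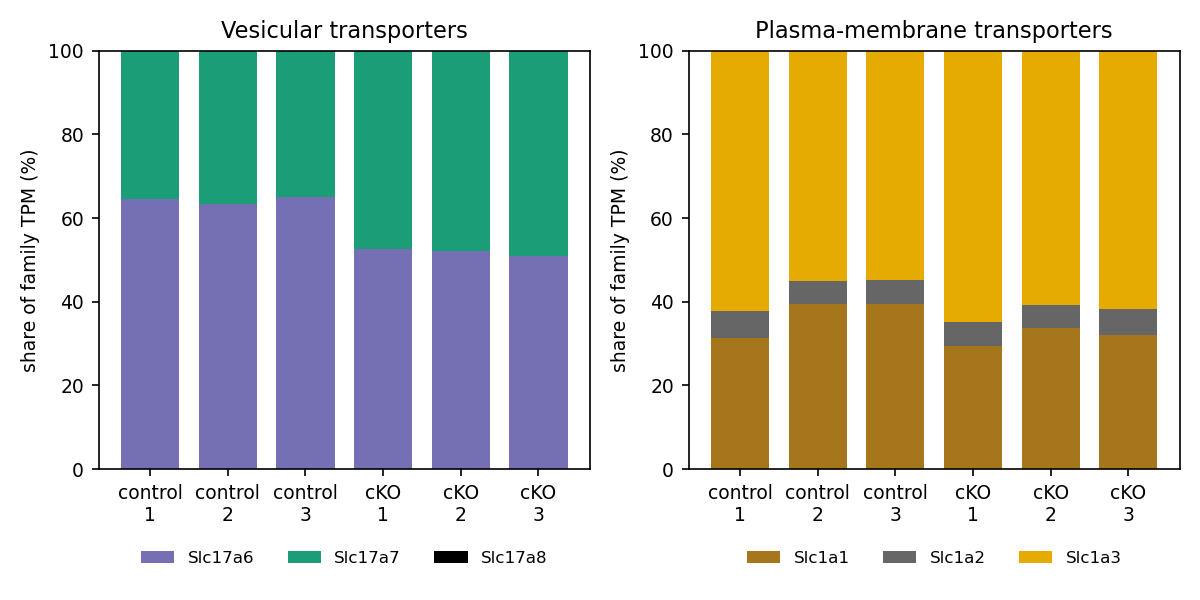
Share of each gene in the summed TPM of the vesicular transporters (left) and the plasma-membrane transporters (right), in percent, 1 bar per library. The Slc17a7 share was 34.78% to 36.5% in the control libraries and 47.34% to 48.94% in the cKO libraries, and Slc17a8 is too low to be seen. The Slc1a2 share was 5.496% to 6.472% in all 6.

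In the plasma-membrane family, Slc1a3 took the largest share, 57.35 ± 4.22% of the summed TPM in control and 62.41 ± 2.07% in cKO. Slc1a1 took 36.74 ± 4.70% and 31.71 ± 2.16%, and Slc1a2 took 5.912 ± 0.504% and 5.88 ± 0.338% (SD, n = 3). The summed level was 117 ± 23.7 TPM in control and 135 ± 15.0 TPM in cKO, and the groups overlapped. Slc1a2 had about the same number of estimated counts in control as Slc17a7 (means of 538 and 516), but its transcript is several times longer, and per length it was far lower (6.997 against 26.4 TPM).

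Over all 6 libraries, the order of mean levels in TPM was Slc1a3, Slc17a6, Slc1a1, Slc17a7, Slc1a2 and Slc17a8. Neighbours were compared by a 2-sided exact sign-flip permutation test of the log2 TPM difference over libraries, whose smallest possible p with 6 libraries is 0.03125. Slc1a3 exceeded Slc17a6 by 0.58, Slc17a6 exceeded Slc1a1 by 0.23 and Slc17a7 exceeded Slc1a2 by 2.28 on the log2 scale, each in 6 of 6 libraries (exact p = 0.03125, adjusted over 5 comparisons 0.05208). These differences exceeded their spread between libraries, although the adjusted p missed 0.05. Slc1a2 exceeded Slc17a8 in the 5 libraries where Slc17a8 was above 0 (exact p = 0.0625, adjusted 0.07812). Slc1a1 and Slc17a7 did not differ beyond their spread over the 6 libraries (exact p = 0.25, adjusted 0.25), and their order was not the same in the 2 groups. That spread includes the difference between the groups. The log2 TPM ratio of Slc17a7 to Slc1a1 was -0.6835 ± 0.0498 in control and 0.1815 ± 0.0508 in cKO (SD, n = 3). Slc1a1 was the higher gene in 3 of 3 control libraries and in 0 of 3 cKO libraries.

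Slc1a3 and Slc1a2 varied together among replicates of a group. Relative to the group mean of log2 CPM, control replicate 1 was higher by 0.382 for Slc1a2 and 0.367 for Slc1a3, and cKO replicate 1 by 0.221 and 0.225. Every other library was below its group mean for both genes. Over the 6 libraries, the Pearson correlation of their log2 CPM was 0.913. That of Slc17a6 with Slc17a7 was 0.0419, and it includes the difference of Slc17a7 between the groups. Relative to the group means, Slc17a6 and Slc17a7 had the same sign in every library. Control replicate 2 was at -0.2 for Slc17a6 and -0.0844 for Slc17a7, and cKO replicate 3 at -0.109 and -0.0661. The libraries share depth and processing, and each coefficient describes these 6 libraries. The deviations of Slc17a7 ran from -0.0844 to 0.0636 and those of Slc1a1 from -0.0393 to 0.0625. Those of Slc17a6 were wider, from -0.2 in control replicate 2 to 0.136 in control replicate 3.

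Of the 9 astrocyte markers, 5 (Aqp4, Fabp7, Aldoc, Gja1 and Sox9) were highest in replicate 1 of both groups in CPM, as were 10.8% of all tested genes. The other 4 were not. Slc4a4 was highest in replicate 3 of both groups (6.84, 4.05 and 9.27 TPM in control, 8.62, 10.21 and 11.56 TPM in cKO). The radial glial and astrocytic fatty acid binding protein Fabp7 had 1548.6, 1216.6 and 988.63 TPM in control and 1388.6, 1097.5 and 1085.1 TPM in cKO, again highest in replicate 1 of each group. The glial inward rectifier Kcnj10 (9.32, 5.75 and 5.75 TPM in control, 10.23, 7.60 and 8.15 TPM in cKO) was also highest in replicate 1 of each group. The summed level of the 9 astrocyte markers, nearly all of it Fabp7, was 1063.8 to 1666.7 TPM in control and 1201.3 to 1522.5 TPM in cKO. The mature astrocyte markers Gfap, S100b and Aqp4 were all at or below 3.10 TPM. In bulk tissue, fewer cells of a type and less RNA per cell cannot be told apart, and the part of cell composition in the levels of Slc1a2 and Slc1a3 was not tested.

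**Figure D3:**
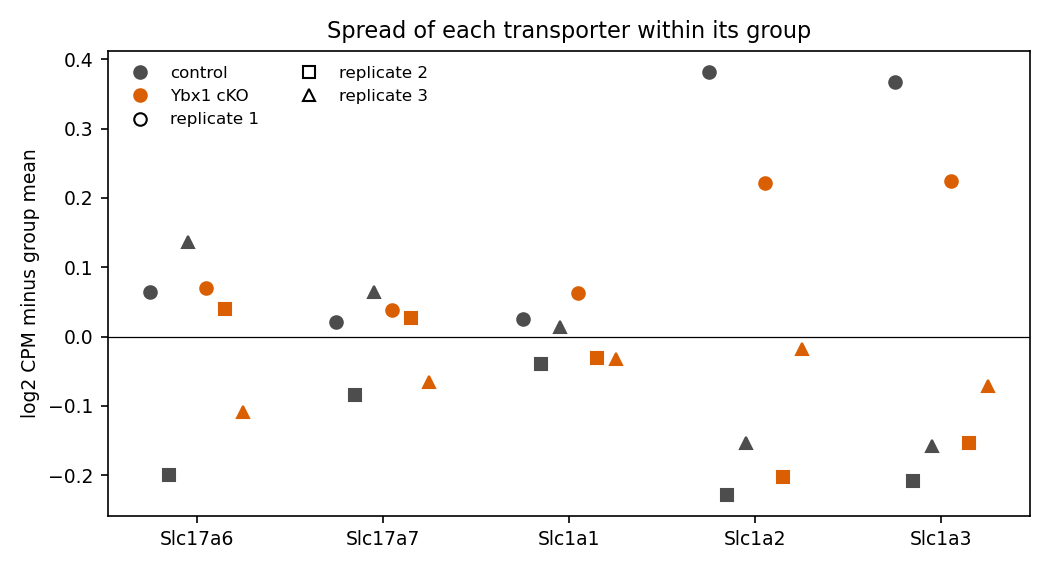
Deviation of each library from the mean of its own group (log2 CPM) for the 5 tested transporters, with control in grey, Ybx1 cKO in orange and replicates 1 to 3 as circle, square and triangle. Replicate 1 of both groups lay above 0.2 for Slc1a2 and Slc1a3, and Slc17a7 and Slc1a1 stayed within 0.1 of their group means.

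The level of Slc17a7 can also be set beside the markers of the neurons that use it. None of the 11 cortical excitatory neuron markers had separated groups in CPM or an unadjusted p under 0.05, and their median log2 fold change was -0.0698 against 0.00272 over all tested genes. Their summed level was 2042.6 to 2919.3 TPM in control and 2322.7 to 2633.5 TPM in cKO. Of the cells outside the neural lineage, 2 marker lists were higher in cKO as summed TPM and the third, erythroid, overlapped. On the TPM scale the median log2 ratio over all tested genes was 0.144, and separated sums were not particular to these lists. The interneuron markers, for example, summed to 824.62 to 923 TPM in control and 930.28 to 1352.7 TPM in cKO, with a median log2 fold change of -0.0988. Endothelial and pericyte markers summed to 199.99 to 232.19 TPM in control and 237.79 to 287.62 TPM in cKO, and microglial markers to 55.96 to 67.6 TPM and 70.8 to 74.08 TPM. Erythroid markers summed to 7578.4 to 8402.1 TPM and 7997.3 to 9440.2 TPM, with a median log2 fold change of -0.0441. An unadjusted p under 0.05 by edgeR with a higher level in cKO was found for 2 of 6 endothelial and pericyte genes and 0 of 6 microglial genes. Over all tested genes the share was 3.14%. In each of these lists, 2 of 6 genes had every cKO library above every control library in CPM, against 7.35% of all tested genes. No gene of either list was called. Their median log2 fold changes, from counts, were 0.258 and 0.0727. Their part in the level of Slc17a7 was not tested.

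A further readout was the effective transcript length that the counts and FPKM values imply, which moves when isoform use moves. It can also shift for many genes of a library together, so a small difference need not be isoform use. Control replicate 2 had the longest value for Slc17a7 (2652.4 bases), Slc1a1 (3452.1), Slc1a3 (3919.7) and Slc1a2 (10616), and the shortest for Slc17a6 (3430.4). It was compared with a 2-sided exact permutation test, whose smallest p with 3 against 3 libraries is 0.1. Slc17a7 had an implied length of 2629.3 to 2652.4 bases over all libraries, with a difference of -0.202% between cKO and control (exact p = 0.5). The differences were -0.184% for Slc1a1 and -0.148% for Slc1a3 (exact p = 0.5 for each). Slc17a6 (3430.4 to 3615.9 bases, -0.963%, exact p = 0.6) and Slc1a2 (9694.7 to 10616 bases, -3.99%, exact p = 0.2) varied more between libraries, and for both the groups overlapped.

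No enzyme that makes or degrades glutamate passed the test. All 9 genes of this list were tested and 0 were called at an adjusted p under 0.05 in edgeR or in DESeq2. At an unadjusted p under 0.05, which 3.14% of tested genes passed upward and 3.49% downward, the list also had 0 genes. Glul, the glial glutamine synthetase, had 170.72, 172.32 and 157.72 CPM in control and 144.06, 140.49 and 147.51 CPM in cKO. Its groups did not overlap in CPM, whereas they overlapped in estimated counts and TPM. Its log2 fold change was -0.21 (SE 0.0984, adjusted p = 0.773 by edgeR). In this list 2 of 9 genes, Glul and Got2, had every cKO library below every control library in CPM, against 6.93% of all tested genes. The aspartate transaminases Got1 and Got2 had -0.21 (SE 0.132) and -0.17 (SE 0.1), glutamate dehydrogenase Glud1 had 0.04 (SE 0.0961), Gls2 had -0.22 (SE 0.327) and Aldh18a1, of proline synthesis, had -0.09 (SE 0.0995). The glutamate decarboxylases Gad1 and Gad2, which turn glutamate into GABA, had 0.15 (SE 0.155) and 0.30 (SE 0.206). The median log2 fold change of the list was -0.093.

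Among the carriers that supply glutamine and move glutamate into mitochondria, 0 of 8 were called by edgeR or DESeq2. The median was 0.164, and 1 gene passed an unadjusted p of 0.05 in each direction. The glutamine transporter Slc38a3 had 32.1, 33.7 and 26.0 CPM in control and 42.4, 35.8 and 36.5 CPM in cKO, with a log2 fold change of 0.32 (SE 0.135, adjusted p = 0.731 by edgeR). The mitochondrial glutamate carrier Slc25a18 had the largest value, 0.70 (SE 0.319), at 10 to 25 counts per library. The cystine-glutamate exchanger genes Slc7a11 and Slc3a2, whose product exports glutamate for cystine, had log2 fold changes of -0.23 (SE 0.135) and -0.10 (SE 0.148).

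No relative of the transporters passed the test in edgeR or DESeq2, and 0 of the 6 that were tested had an unadjusted p under 0.05. In the SLC1 family, the neutral amino acid exchangers Slc1a4 and Slc1a5 had log2 fold changes of -0.09 (SE 0.121) and -0.16 (SE 0.177). The glutamate transporters Slc1a6, known from the cerebellum, and Slc1a7, known from the retina, were low. Slc1a6 had 33 to 61 counts and a log2 fold change of -0.09 (SE 0.254), and Slc1a7 had 1 count in cKO replicate 3 and 0 elsewhere. The SLC17 sialic acid transporter Slc17a5 had 0.11 (SE 0.137). Of the vesicular transporters of other transmitters, the GABA and glycine transporter Slc32a1 had 241 to 433 counts in control and 220 to 392 in cKO, a log2 fold change of -0.10 (SE 0.231). The monoamine transporter Slc18a2 had 0.22 (SE 0.334), and Slc18a1 and the acetylcholine transporter Slc18a3 did not exceed 4 counts in any library.

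Glutamate transport is powered by the vesicular proton pump on vesicles and by the sodium pump at the plasma membrane. Of 16 proton pump genes, edgeR called 0, with 1 at an unadjusted p under 0.05, and the median log2 fold change was -0.0281. Atp6v0e2 was the exception in size, with 158, 185 and 152 CPM in control and 116, 117 and 121 CPM in cKO, a log2 fold change of -0.48 (SE 0.11, adjusted p = 0.348 by edgeR). In DESeq2 it was called, with a log2 fold change of -0.49 and an adjusted p of 0.0147. Atp6v1g1 followed with -0.25 (SE 0.141). Of 6 genes of the sodium pump and the glial potassium channel, 0 were called by edgeR or DESeq2, 2 had an unadjusted p under 0.05, and the median was 0.172. That median was 0.0144 without cKO replicate 1 and 0.329 without control replicate 1. The beta subunit Atp1b1 had 119, 134 and 92.8 CPM in control and 215, 136 and 148 CPM in cKO. Its groups did not overlap in CPM, whereas they overlapped in estimated counts. Its log2 fold change was 0.52 (SE 0.197, adjusted p = 0.645 by edgeR). In this list 2 of 6 genes had every cKO library above every control library in CPM, against 7.35% of all tested genes. Of 11 genes encoding proteins that bind or traffic these transporters, 0 were called by edgeR or DESeq2, 1 had an unadjusted p under 0.05, and the median was -0.0441. The endophilin gene Sh3gl3 had the largest value, -0.29 (SE 0.118, adjusted p = 0.687 by edgeR), and the cytoskeletal GTPase Septin2 had -0.16 (SE 0.109).

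**Figure D4:**
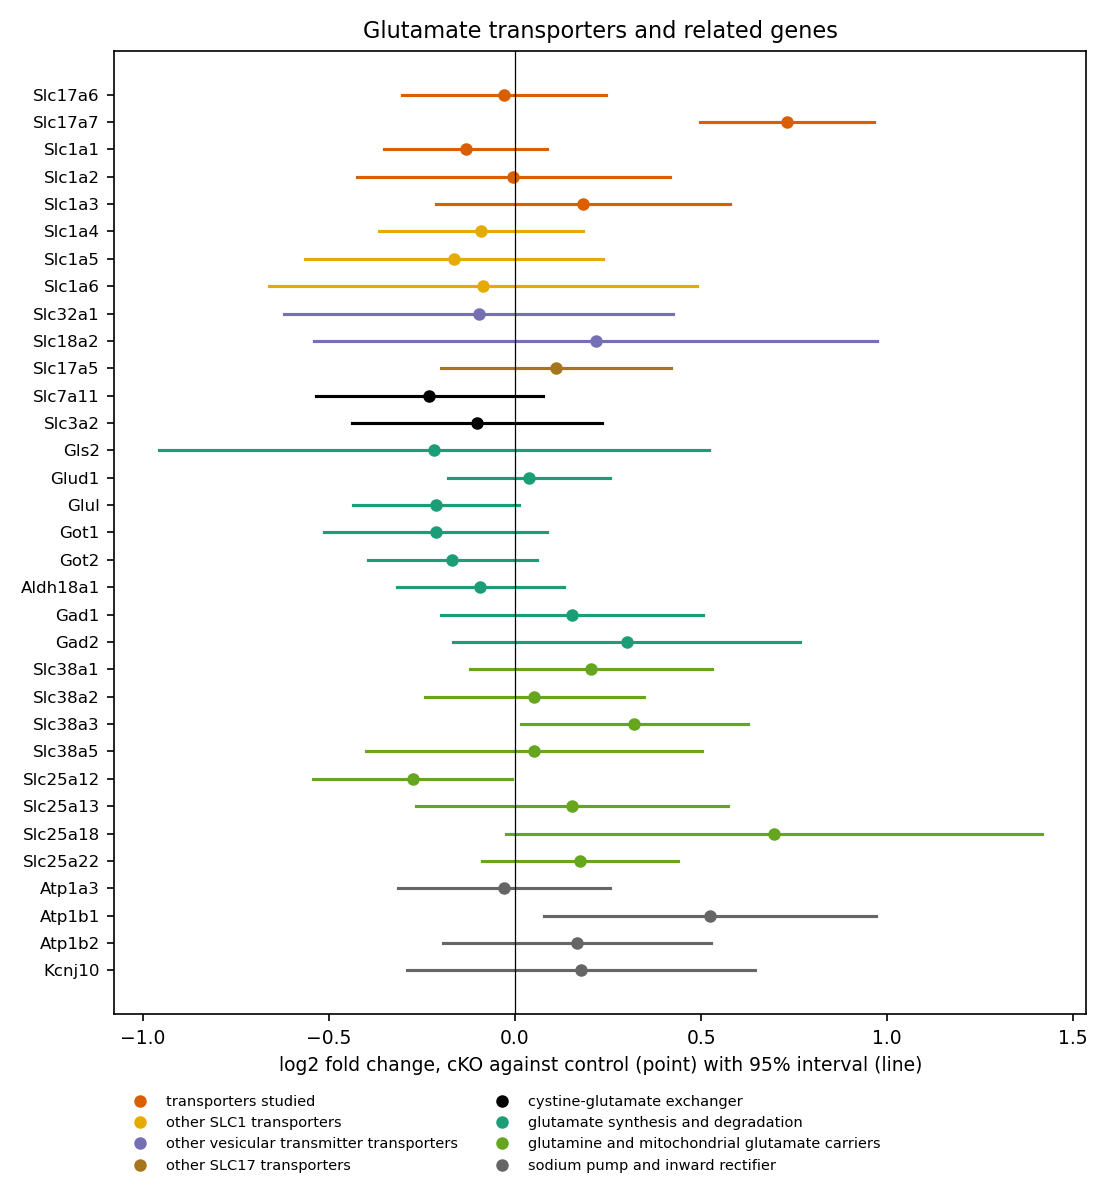
Log2 fold change of cKO against control (points, with 95% intervals as lines) from edgeR for the 5 tested transporters and tested genes of 7 related lists, coloured by list. The interval of Slc17a7 ran from 0.50 to 0.96, and the other transporters' intervals spanned 0.

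The genes whose pattern over the 6 libraries was most like each transporter were found by Pearson correlation of log2 CPM among 10973 genes with a mean of at least 5 TPM. For Slc17a7 these were Bbs4, Mettl5, 9530057J20Rik, Btbd3 and Mtcl1 (r = 0.980 to 0.995). Each had a higher mean in cKO, with log2 fold changes from 0.34 to 1.03, and none was called. The correlation was taken over both groups, so genes picked by it follow the known difference of Slc17a7. Their direction is therefore not independent evidence. For Slc17a6 they were Nbas, Srpk1, Ppm1k, Inhba and Adss (r = 0.972 to 0.982). For Slc1a3 they were Nipal3, Rxra, Slc22a23, Tex261 and Rapgefl1 (r = 0.978 to 0.990), and for Slc1a2 they were Pik3r4, Stx3, Pcdha10, Cenpn and 1600014C10Rik (r = 0.965 to 0.9748). The libraries share depth and processing, and the lists only describe the pattern over 6 points.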

How the data were processed

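mRNA-seq libraries of E18.5 cortices (3 control, labelled WT, and 3 cKO) were analysed from 1 table of 27 columns and 17348 genes. The authors deposited 3 values per gene and library, namely estimated counts (not normalized), TPM values (scaled by transcript length and to an equal total) and FPKM values (scaled by length and library total). A further 6 columns hold the authors' group means and were not used, and 0 columns of per-sample values were left unused. The submitters' processing notes name HISAT2 2.2.1, Bowtie2 2.4.5, RSEM 1.3.1 and the builds GRCm38 and mm10, without their roles. RSEM divides reads that fit several transcripts. Whether counting used the strand is not given in the sources used here.

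Estimated counts, of which 89.4% were whole, were rounded, filtered with filterByExpr (13570 genes left), and scaled by TMM. The groups were tested in R 4.3.3 by the quasi-likelihood method of edgeR 4.0.16, with p-values adjusted after Benjamini and Hochberg. SEs came from the F statistic and the fold change, and 95% intervals from the SE. CPM values use the TMM-scaled total. The common biological coefficient of variation was 0.147, at totals of 15091951 to 16885451. Counting error comes on top of it and is largest for genes with few counts, such as Slc25a18 (10 to 25 per library). Replicates differed by 3.51 to 65.4 chi-square per degree of freedom, so none was another library sequenced again. Whether libraries share an embryo or an RNA pool cannot be read from these values. P-values of edgeR set a group difference against the spread between these libraries, moderated across genes. The exact p-values come from rearranging these libraries. As the embryos per library are not stated, neither need reflect the spread between embryos. The script was tested on simulated counts. TPM and FPKM served for ratios, shares, order and implied length.

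The alternatives were a block on the replicate number, DESeq2 1.42.0, RLE size factors in edgeR, no filter, a CPM minimum of 1 in 2 libraries, TMM without ribosomal protein genes, a length correction (mgcv 1.9.3) with and without the block, a pseudocount of 1 TPM, and each library left out. The transporters and gene lists were chosen with earlier results of these data known. The genes named were the transporters, Ybx1, all of the synthesis, SLC1 and vesicular lists, the 2 largest values of the other pathway lists, markers needed beside a result, and the 5 genes most correlated with a transporter. Some items withheld for evaluation are not reported here, and list counts and medians cover whole lists. Rpsa, Eef1g, Eif2s3y, Prkcd, Calb2 and Slc4a4 were named after their values were seen. The study's test for differential expression is not given in the sources used here. Protein sequences, the E13.5 and knockdown experiments and RIP-seq were not analysed here. Figures were drawn with matplotlib 3.10.9.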

Additional observations from a re-analysis of the deposited data

How the results depend on the processing

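Slc17a7 was higher in cKO under all 14 alternatives. Its log2 fold change ran from 0.6889 to 0.7631 when a library was left out, with an adjusted p of edgeR of 0.00576 without control replicate 2. It passed 0.05 in 4 alternatives: that one, DESeq2 (0.7276, adjusted p = 3.73e-06), the length correction (0.7271, adjusted p = 0.00548) and the length correction with replicate block (0.7285, adjusted p = 0.0035). Over the alternatives the adjusted p ran from 3.73e-06 to 0.595. The number of called genes was 10, and it was 99 with DESeq2, 110 with the length correction, 226 with the length correction and replicate block, and 8 to 122 when a library was left out (122 without control replicate 2, 19 without control replicate 3); the cause was not tested. With the replicate block alone it was 11, and Slc17a7 had 0.731 (adjusted p = 0.121). The numbers were not treated as pairs, because the same-number correlations of deviations were 0.099, 0.0847 and 0.262, although each library correlated best with its own number, which is a hint from the data and not from the design.

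For transporters near 0 the sign was not stable. Slc1a2 was at 0.01005 with the replicate block, -0.1859 with the length correction and -0.1699 with the length correction and replicate block. When a library was left out, it ran from -0.1228 to 0.2162 (0.2162 without control replicate 1), and Slc17a6 ran from -0.1235 to 0.03946. Slc1a3 stayed above 0, from 0.06221 to 0.3909, when a library was left out, and Slc1a1 below 0, from -0.1636 to -0.1171. The difference in implied length ran from -0.33% to 0.0497% for Slc17a7, -0.288% to 0.0089% for Slc1a1 and -0.243% to 0.0363% for Slc1a3, each positive only without control replicate 2. The median of the synthesis genes ran from -0.129 (without control replicate 3) to -0.0276 (without control replicate 1) and that of the partners from -0.0992 to 0.0824 (without control replicate 2). Leaving out cKO replicate 1 put that of the sodium pump list at 0.0144, leaving out control replicate 1 put it at 0.329, and that of the proton pump was 0.0388 without control replicate 2. With a pseudocount of 1 TPM, the neighbour differences were 0.572 (Slc1a3 over Slc17a6), 0.2272 (Slc17a6 over Slc1a1), 2.134 (Slc17a7 over Slc1a2) and 2.972 (Slc1a2 over Slc17a8), each with an adjusted exact p of 0.03906. Each difference was smaller than without the pseudocount. The adjusted p fell only because the pseudocount admits the library where Slc17a8 was 0, so that its comparison also reaches the smallest possible p of the sign-flip test. Among the chosen transporters, depth limits only Slc17a8, whose counts did not exceed the floor of 3. Related genes were also limited by it: Slc1a7, Slc18a1 and Slc18a3 did not exceed 4 counts in any library. Gls2 and Slc25a18 did not exceed 18 and 25 counts.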
